A study of Homo sapiens with 27 samples.

Results

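The proteasome subunit genes of this account are the 30 genes whose platform symbol is PSMA, PSMB, PSMC or PSMD followed by a number. PSMB8, PSMB9 and PSMB10, the catalytic subunits of the immunoproteasome, are not among them and are set beside them as a contrast. The 30 genes were taken by symbol, with earlier results of these data known, out of 11963 genes that had a probe set naming 1 gene. They comprise 13 genes of the core particle (6 of the alpha rings and 7 of the beta rings), 8 of the base, 6 of the lid, and PSMD5, PSMD9 and PSMD10, whose products are assembly chaperones and no part of the finished complex. The members lie on 14 chromosomes. PSMA6, PSMA8, PSMB11, PSMC5, PSMD7 and PSMD13 were not analysed here.

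The proteasome is the barrel-shaped protease that breaks down proteins tagged with ubiquitin. Alpha subunits gate the ends of the barrel, and the beta subunits PSMB5, PSMB6 and PSMB7 carry its chymotrypsin-like, caspase-like and trypsin-like sites. A cap sits on the barrel: its base holds the PSMC ATPases, which unfold substrates, and the ubiquitin receptor PSMD4, while its lid holds PSMD14, the enzyme that removes ubiquitin chains. Human cells that lose proteasome activity raise the subunit genes together through the transcription factor NFE2L1, and interferon-gamma replaces the standard catalytic subunits with PSMB8, PSMB9 and PSMB10.

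MDA-MB-231, a cell line from a human breast tumour, was the source of all RNA, which was measured on 27 Affymetrix arrays. Cells received 5SGlcNAc at 50 µM, which inhibits OGT, the enzyme that places O-GlcNAc sugars on proteins, or Thiamet-G at 25 µM, which inhibits OGA, the enzyme that takes them off. The controls received the vehicle DMSO. There were 3 arrays per treatment at 48 h, and 1 array per treatment at 0, 2, 4, 6, 8 and 24 h. The labels name no gene change in the line and do not say that the 3 arrays of a group were separate cultures, so p-values reflect how far these arrays vary, a variation that may be technical. Judged by their differing medians, the arrays of 48 h and of 0 to 24 h seem to have been processed apart, which the labels do not state. Their levels are never set against each other.

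All 7 markers of the line (VIM, CD44 and others) ranked between the 92.6th and 99.9th percentile of gene levels, and all 8 measured haematopoietic markers lay below the median. Of 6 markers held to be low in the line, 4 lay below the median, and GATA3 and EPCAM lay above it. Of 10 luminal markers only 4 lay below it, with KRT18, KRT8 and KRT19 at the 98.7th, 94.8th and 89.2nd percentile. Of 8 fibroblast markers 7 lay below it, and COL1A1 above. With 5SGlcNAc against DMSO at 48 h, 3 of 10 luminal markers fell, AGR2 by 1.30, CLDN7 by 0.48 and KRT19 by 0.42, as did the line marker S100A4 by 0.54, CDH1 by 0.29 and LUM, 1 of 8 fibroblast markers, by 0.49. The part of these shifts in the member values was not tested. OGT messenger RNA was higher with 5SGlcNAc than with DMSO at 48 h (log2 difference 0.86), and OGA messenger RNA was lower (-1.08). With Thiamet-G, OGA was higher (0.62) and OGT lower (-0.24). The probe sets of the 30 members were bright, from the 80.4th percentile (PSMD3) to the 99.1st, with a median at the 95.6th. Their values repeated closely: the SD between replicates at 48 h, averaged over groups, had a median of 0.034 on the log2 scale over the 30 genes (0.011 to 0.062). In these bulk samples a change in RNA per cell and a change in the kinds of cells cannot be told apart.

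With 5SGlcNAc at 48 h, the barrel and the lid were slightly higher than with DMSO, and no member was lower by the test. Of the 30 members, 6 rose and none fell (limma, Benjamini-Hochberg over all genes, threshold 0.05), beside 2.92% of all 11963 genes that rose and 7.32% that fell. The 6 were PSMD4, PSMD11, PSMB5, PSMD3, PSMA3 and PSMD14, and each rise was small, at most 1.14-fold. The log2 difference was above 0 for 25 of 30 members with a median of 0.072, beside a median of 0.01 and 53.1% above 0 over all genes. Among the 2349 genes at least as bright as the dimmest member, the median was -0.0067 and 46.2% were above 0. Of these, 106 rose and 212 fell by the same test. Leaving out any 1 of the 6 arrays left 0 or 1 of these calls: none without DMSO array 1 or any 5SGlcNAc array, and 1 without DMSO array 2 or 3. The member median was between 0.069 and 0.098 over all 14 alternative settings.

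PSMD4, the ubiquitin receptor of the base, had levels of 12.66, 12.66 and 12.68 with 5SGlcNAc, 12.35, 12.42 and 12.41 with Thiamet-G, and 12.43, 12.47 and 12.52 with DMSO. The 5SGlcNAc arrays lay above all the others. The difference from DMSO was 0.19 (SE 0.041, limma adjusted p = 0.0174), and all 4 probe sets of the gene gave a positive one, from 0.12 to 0.19. PSMD11, a scaffold subunit of the lid, had 12.52, 12.47 and 12.48 with 5SGlcNAc, 12.26, 12.35 and 12.36 with Thiamet-G, and 12.33, 12.29 and 12.30 with DMSO. Its lowest 5SGlcNAc array was above its highest array of either other group, and the difference from DMSO was 0.18 (limma adjusted p = 0.0240). PSMB5, the chymotrypsin-like subunit, had 12.77, 12.73 and 12.78 with 5SGlcNAc, 12.56, 12.59 and 12.65 with Thiamet-G, and 12.54, 12.64 and 12.56 with DMSO. It too did not overlap, with a difference from DMSO of 0.18 (limma adjusted p = 0.0325).

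PSMD3, a structural lid subunit, had 10.93, 10.94 and 10.94 with 5SGlcNAc, 10.65, 10.64 and 10.78 with Thiamet-G, and 10.75, 10.79 and 10.76 with DMSO. PSMA3, an alpha ring subunit, had 13.00, 13.00 and 12.98 with 5SGlcNAc, 12.90, 12.84 and 12.86 with Thiamet-G, and 12.83, 12.82 and 12.87 with DMSO. For PSMD14, the deubiquitinase of the lid, the level was 12.91 on all 3 5SGlcNAc arrays, 12.81, 12.76 and 12.80 with Thiamet-G, and 12.77, 12.78 and 12.79 with DMSO. In all 3 genes the 5SGlcNAc arrays stood apart from the DMSO arrays, with differences of 0.17, 0.15 and 0.13 for PSMD3, PSMA3 and PSMD14 (limma adjusted p = 0.0464, 0.0321 and 0.0498 in that order). Over all 30 members, the 5SGlcNAc and DMSO arrays did not overlap for 16 higher and 2 lower genes, beside 12.7% and 18.5% of all genes.

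**Figure D1:**
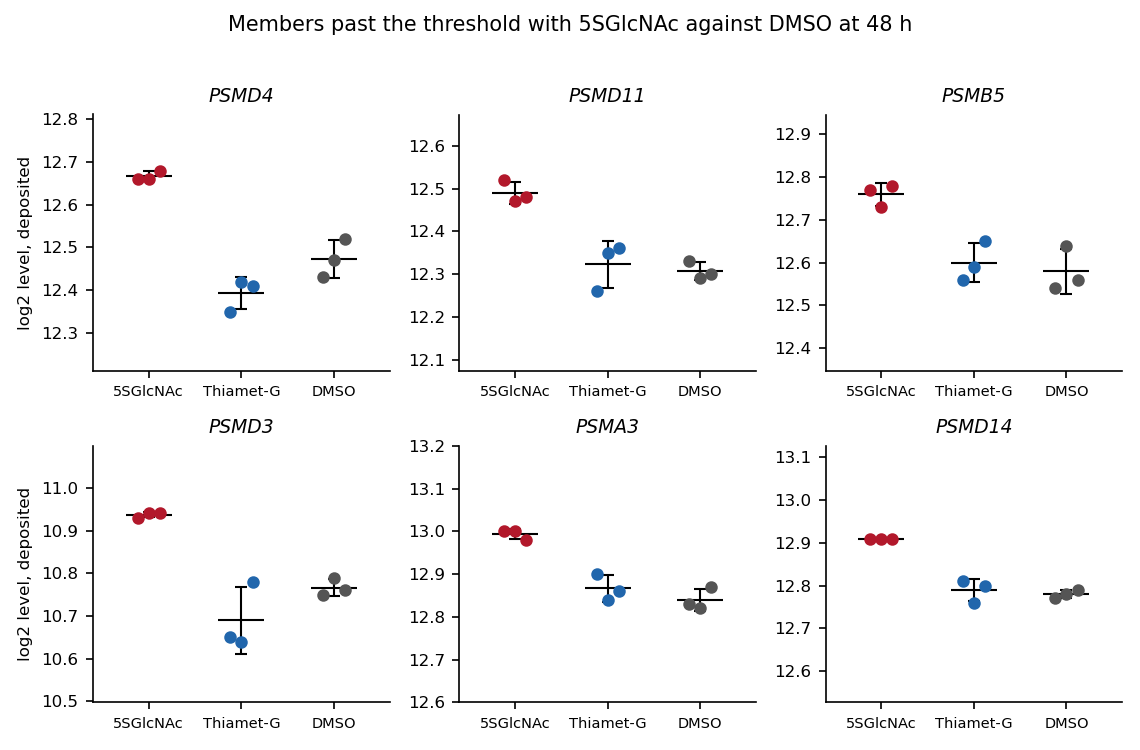
Deposited log2 level (vertical axis) of the 6 members past the threshold with 5SGlcNAc against DMSO at 48 h, 1 point per array, with the mean and SD of 3 arrays per treatment as bars. In every panel the 5SGlcNAc points lie above the DMSO points, and the Thiamet-G points also lie below the 5SGlcNAc points.

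Core, base and lid differed in how far they moved. All 13 core genes had a positive difference (median 0.12, from 0.037 to 0.18), and 2 passed the test, PSMA3 and PSMB5. Of the 6 lid genes, 3 passed and all 6 were positive, with a median of 0.12. Only PSMD4 of the 8 base genes passed, and their median was 0.030, or 0.023 over the other 7. The 5 base ATPases measured (PSMC1, PSMC2, PSMC3, PSMC4 and PSMC6) ranged from 0.0033 to 0.12, with PSMC2 highest (limma adjusted p = 0.0917). PSMD1 and PSMD2, the large scaffolds of the base, were both at -0.0067.

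The mean level over the genes of a group showed the same order. Core genes averaged 13.12, 13.09 and 13.11 on the 5SGlcNAc arrays against 12.99, 13.02 and 13.01 on the DMSO arrays. Lid genes averaged 12.18, 12.16 and 12.18 with 5SGlcNAc against 12.04, 12.06 and 12.06 with DMSO. For base genes the averages were 12.57, 12.55 and 12.57 with 5SGlcNAc against 12.48, 12.52 and 12.54 with DMSO. No group overlapped, and the mean shift was 0.099 for the core, 0.12 for the lid and 0.053 for the base. The core shift exceeded the base shift by 0.046 and the lid shift exceeded it by 0.070, and the array values of both gaps did not overlap between 5SGlcNAc and DMSO. The lid shift exceeded the core shift by 0.024, also without overlap. These gaps are descriptions with no test. With Thiamet-G the lid shift exceeded the base shift by 0.028 and the core shift by 0.020, both without overlap with DMSO, while the gap of core to base (0.0080) overlapped. The inhibitors share the DMSO arrays. Between 5SGlcNAc and Thiamet-G the mean difference was 0.11 for the lid, 0.10 for the core and 0.065 for the base.

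Within the core, the alpha genes PSMA3 (0.15) and PSMA5 (0.15, limma adjusted p = 0.0792) had the largest alpha differences, with a ring median of 0.12. In the beta ring the median was 0.043, with PSMB5 (0.18) and the trypsin-like subunit PSMB7 (0.15, limma adjusted p = 0.0526) highest. This median depends on the probe set taken. Those of PSMB1 ran from 0.043 to 0.17 and those of PSMB4 were 0.037 and 0.14, the lowest being used in both. For PSMB2 they were 0.017 and 0.12, the higher being used. PSMB6, the caspase-like subunit, had a difference of 0.037, and its arrays overlapped: 12.86, 12.84 and 12.85 with 5SGlcNAc against 12.83, 12.77 and 12.84 with DMSO. The chaperones PSMD5, PSMD9 and PSMD10 all had negative differences, -0.097, -0.060 and -0.083, and none passed. PSMD5 was the member whose probe sets disagreed most in this comparison, at -0.097 for the brighter probe set and 0.097 for the other. The probe sets of PSMD9 also had opposite signs, at -0.060 and 0.050.

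**Figure D2:**
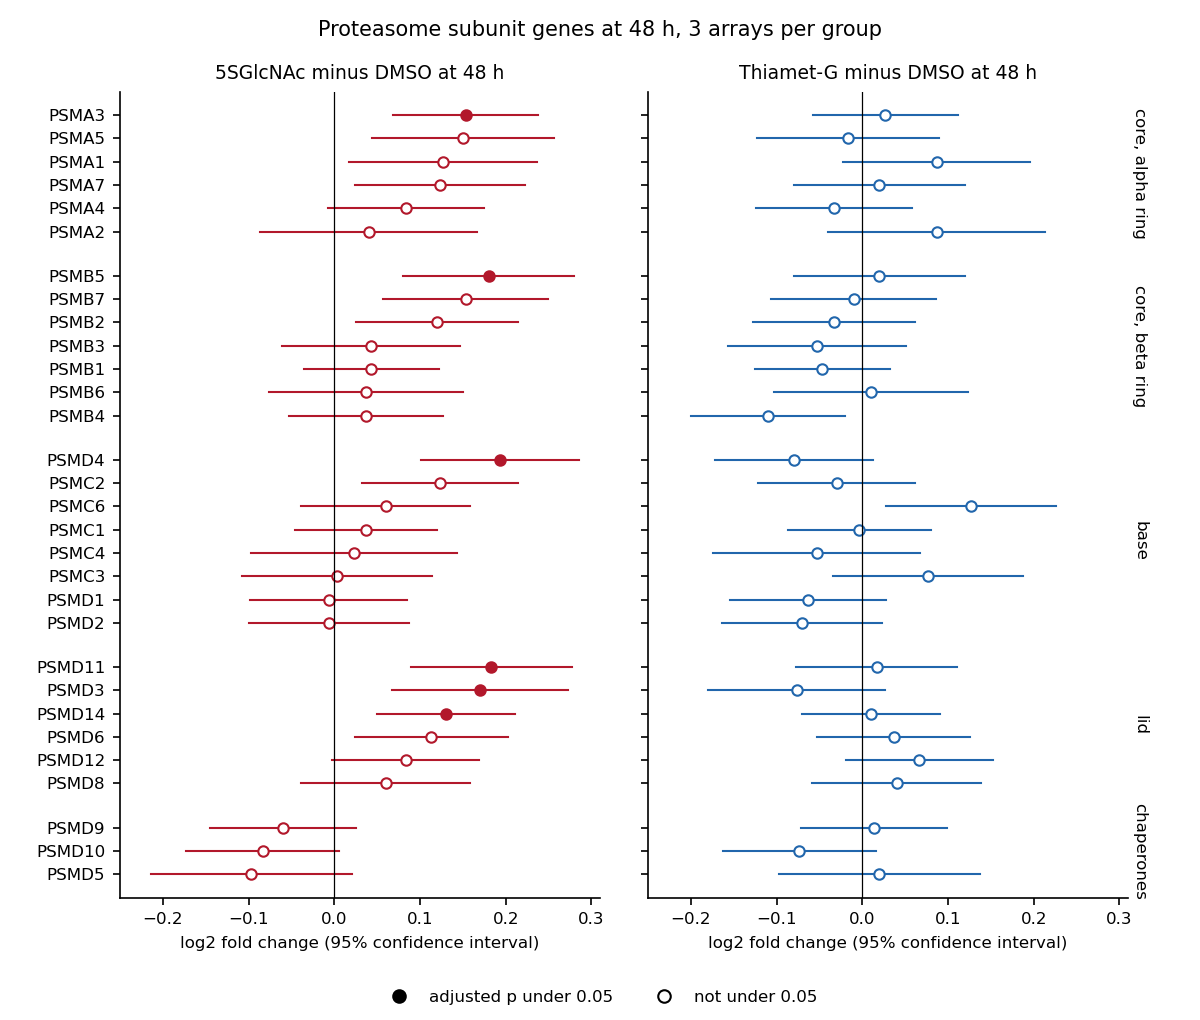
Log2 fold change (horizontal axis) of each of the 30 members at 48 h, 5SGlcNAc minus DMSO on the left and Thiamet-G minus DMSO on the right, with 95% confidence intervals from limma; filled points passed the adjusted threshold of 0.05. With 5SGlcNAc all core and lid points lie above 0 and the 3 chaperones below it, and with Thiamet-G the points lie on both sides of 0 with none filled.

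With Thiamet-G the members lay close to DMSO, with a median absolute log2 difference of 0.038. It was 0.073 over all genes and 0.057 among the 2349 genes at least as bright as the dimmest member. None of the 30 passed the limma test in either direction, beside 3.49% of all genes, and 2 members (6.67%) had an unadjusted p under 0.05, against 19.8% of all genes. The arrays did not overlap for 2 higher and 4 lower members, beside 6.37% and 15.1% of all genes. The counts that passed or did not overlap are near the shares over all genes and tell nothing particular to the members. The 2 smallest p-values were those of PSMB4, a beta ring subunit, at -0.11 (limma adjusted p = 0.172), and PSMC6, a base ATPase, at 0.13 (limma adjusted p = 0.157). The member median was 0.0033, beside -0.01 over all genes (0.043 with median centring and -0.013 with quantile normalization), and the medians of core, base and lid were -0.010, -0.042 and 0.027. The largest differences of the alpha ring were PSMA1 and PSMA2, both 0.087, and beside PSMB4 the beta ring had PSMB3 at -0.053. In the base PSMD4 followed PSMC6 at -0.080, in the lid PSMD3 had -0.077 and PSMD12 0.067, and of the chaperones PSMD10 had -0.073 and PSMD5 0.020. PSMC2 had probe sets at -0.27 and -0.030, the widest gap of this comparison. The 95% confidence intervals of PSMB5, PSMB6 and PSMB7 ran from -0.080 to 0.12, -0.10 to 0.12 and -0.11 to 0.086.

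With 5SGlcNAc set against Thiamet-G, 9 members were higher and none lower, beside 6.87% of all genes that were higher and 812 of 11963 that were lower. The largest differences were those of PSMD4 (0.27, limma adjusted p = 0.00281) and PSMD3 (0.25, limma adjusted p = 0.00787). PSMA5, PSMD11, PSMB7, PSMB5, PSMC2, PSMB2 and PSMB4 followed at 0.15 to 0.17. The arrays did not overlap for 16 higher and 3 lower members, beside 16.1% and 13.2% of all genes. Core genes gave 5 of the 9, base and lid 2 each, and the medians were 0.12, 0.060 and 0.098. Of the chaperones, PSMD5 had -0.12 and PSMD9 -0.073, and each had another probe set above 0, at 0.093 and 0.080. PSMB5, PSMD3, PSMD4 and PSMD11 passed against both DMSO and Thiamet-G, which is 4 of the 6 and 4 of the 9; the comparisons share the 5SGlcNAc arrays. PSMD3 and PSMD4 passed under all 14 alternative settings here, while leaving out any 1 array left 2 to 6 of the 9, with 2 without 5SGlcNAc array 1 or 3 or Thiamet-G array 1 and 3 without 5SGlcNAc array 2. For PSMD11, the probe sets differed most, with 0.17 and 0.50.

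Of the RNA integrity measures, the 3' minus 5' signal of ACTB lay between 0.15 and 0.25 with 5SGlcNAc, 0.25 and 0.39 with Thiamet-G, and 0.22 and 0.33 with DMSO at 48 h. The 5SGlcNAc arrays included the lowest values and overlapped with DMSO, and the part of RNA integrity in the small member shifts was not tested.

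The immunoproteasome subunits were lower with 5SGlcNAc at 48 h. PSMB10 had 8.74, 8.62 and 8.74 with 5SGlcNAc, 8.96, 9.07 and 9.02 with Thiamet-G, and 9.10, 9.14 and 9.13 with DMSO. PSMB8 had 10.05, 10.12 and 10.22 with 5SGlcNAc, 10.50, 10.57 and 10.52 with Thiamet-G, and 10.40, 10.58 and 10.48 with DMSO. PSMB9 had 9.36, 9.42 and 9.63 with 5SGlcNAc, 9.80, 9.87 and 9.86 with Thiamet-G, and 9.83, 9.92 and 9.84 with DMSO. In each gene the highest 5SGlcNAc array was below the lowest array of the other groups. Against DMSO they fell by 0.42 (limma adjusted p = 0.00103), 0.36 (limma adjusted p = 0.00633) and 0.39 (limma adjusted p = 0.00714) for PSMB10, PSMB8 and PSMB9, beside 7.32% of all genes that fell, and all 3 passed under all 14 alternative settings. With Thiamet-G none of the 3 passed against DMSO (-0.11, 0.043 and -0.020 in the same order).

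Each immune subunit takes the place of a standard one, so the pairs were also compared directly. The change with 5SGlcNAc was lower for PSMB8 than for PSMB5 by 0.54, for PSMB9 than for PSMB6 by 0.43 and for PSMB10 than for PSMB7 by 0.58 on the log2 scale. The 3 arrays of the 2 groups did not overlap in any pair, with p = 0.1 in a two-sided exact permutation test, the smallest that 3 arrays against 3 allow. With Thiamet-G the same differences were 0.023 (p = 0.6), -0.030 (p = 0.5) and -0.097 (p = 0.1) in the same exact test, and the arrays of the PSMB10 pair did not overlap there either.

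**Figure D3:**
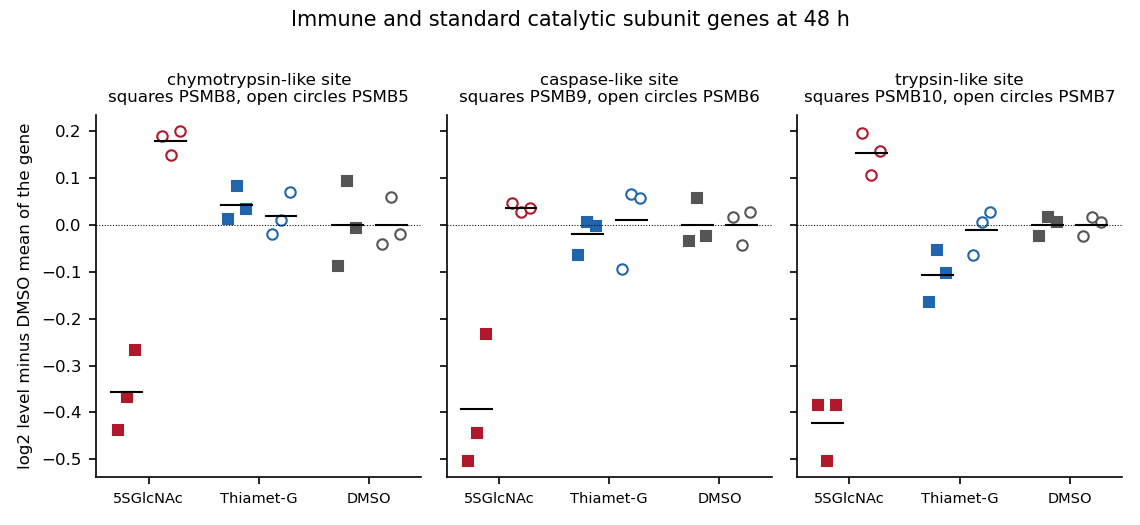
Log2 level minus the DMSO mean of the same gene (vertical axis) on each array of 48 h, with the immune subunit as squares, the standard subunit as open circles and lines at the means of 3 arrays. With 5SGlcNAc all squares lie below 0 and all open circles above it, and with Thiamet-G both kinds lie close to the DMSO points.

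Other genes of the proteasome system were called in both directions. Of 26 measured genes on a list of 35 related ones, 2 rose and 3 fell with 5SGlcNAc against DMSO, beside 10.2% of all genes called in either direction; the 3 were the immune subunits. ADRM1, a further ubiquitin receptor of the base, rose by 0.21 (limma adjusted p = 0.0118), with 11.82, 11.77 and 11.80 against 11.55, 11.57 and 11.64 with DMSO. SQSTM1, a receptor that carries ubiquitinated cargo to autophagy, rose by 0.48. NFE2L1, the regulator of subunit genes, had a difference of -0.060 (limma adjusted p = 0.409), and the core maturation factor POMP 0.080. The lid linker SEM1 had 0.083, the inhibitor PSMF1 0.070, and the deubiquitinases USP14 and UCHL5 had 0.053 and 0.0067. Of the alternative caps, PSME1 had -0.043, PSME3 -0.033 and PSME4 0.11, and PSME4 was higher with 5SGlcNAc than with Thiamet-G (0.18, limma adjusted p = 0.0228). That PSME4 call was lost in 7 of 14 alternative settings, with limma adjusted p up to 0.0856. PSME2 was not analysed here.

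The series' title names NRF2 and KEAP1, so genes of that system were set beside the members. The NRF2 targets HMOX1 and NQO1 rose by 2.36 and 1.07 with 5SGlcNAc against DMSO at 48 h, while NFE2L2, which encodes NRF2, had 0.010 and KEAP1 0.093 and neither passed. The largest member difference, that of PSMD4, was 0.19.

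Promoter sequences were available for 25 of the 30 members in RefSeq windows of build GRCh38.p14, which run 250 bases before to 50 after a start site. PSMA7, PSMB1, PSMB6, PSMB7 and PSMD4 had none. The antioxidant response element, to which NFE2L1 and NFE2L2 bind, was searched in an extended form, the letters TGACNNNGC followed by A. It was found on either strand in 6 of the 25 members (24.0%) and in 3.94% of 27305 genes. The core TGACNNNGC itself, which the extended form contains, was found in 8 members (32.0%) and 16.1% of genes. In PSMD1 and PSMD3 the extended match lay after the start site. The members with the extended form were PSMA4, PSMB3, PSMD1, PSMD3, PSMD9 and PSMD12, of which PSMD3 alone was among the 6 that rose with 5SGlcNAc. The difference with 5SGlcNAc against DMSO was 0.083 for PSMA4, 0.043 for PSMB3, -0.0067 for PSMD1, -0.060 for PSMD9 and 0.083 for PSMD12. The matches of 4 members that lie before the start site are set under each other with 10 bases on either side, the match in capitals, to show how the shared letters recur. In PSMD9 the match is on the opposite strand, so its capitals are the reverse complement of the motif; all sequences read 5′ to 3′ on the gene's strand:
PSMA4 (chr15:78540650-78540679, plus strand): gtgggcacgaTGACTCTGCAccgcctcctc
PSMB3 (chr17:38752627-38752656, plus strand): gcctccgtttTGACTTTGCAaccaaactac
PSMD9 (chr12:121888630-121888659, plus strand): acgctactccTGCCGGGTCAccacaggcgc
PSMD12 (chr17:67366723-67366752, minus strand): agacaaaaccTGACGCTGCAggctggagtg

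Other motifs were also counted on both strands. A CCAAT box was found in 14 of 25 members (56.0%) and 39.7% of genes, the ETS letters CCGGAAG in 8 (32.0%) and 12.2%, and TGACGTCA, the cyclic AMP response element, in 0 members and 2.25%. Of the STAT-like letters TTCNNNGAA (GAS) there was a match in 5 members (20.0%) and 9.38% of genes, and of GAAA repeated after any 2 letters, to which interferon regulatory factors bind, in 2 (8.00%) and 4.38%. For members that rose with 5SGlcNAc, the 170 bases before the most upstream start site are given, with every match that lies wholly inside in capitals. PSMA3 shows a CCAAT box on each strand, PSMD14 a CCAAT box on each strand that overlap, PSMB5 a single CCAAT box, and PSMD3 a GAS match followed by a core antioxidant response element:
PSMA3 (chr14:58244673-58244842, plus strand): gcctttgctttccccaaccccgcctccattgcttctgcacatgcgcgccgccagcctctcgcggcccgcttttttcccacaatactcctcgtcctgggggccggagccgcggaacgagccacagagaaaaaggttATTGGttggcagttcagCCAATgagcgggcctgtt
PSMB5 (chr14:23035221-23035390, minus strand): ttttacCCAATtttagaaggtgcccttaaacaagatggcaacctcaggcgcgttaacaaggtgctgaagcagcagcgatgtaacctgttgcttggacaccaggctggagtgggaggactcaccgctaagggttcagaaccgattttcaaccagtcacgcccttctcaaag
PSMD3 (chr17:39980637-39980806, plus strand): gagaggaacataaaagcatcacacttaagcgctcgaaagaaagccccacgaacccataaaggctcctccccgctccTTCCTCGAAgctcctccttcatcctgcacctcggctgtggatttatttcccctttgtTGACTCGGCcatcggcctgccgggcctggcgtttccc
PSMD14 (chr2:161308255-161308424, plus strand): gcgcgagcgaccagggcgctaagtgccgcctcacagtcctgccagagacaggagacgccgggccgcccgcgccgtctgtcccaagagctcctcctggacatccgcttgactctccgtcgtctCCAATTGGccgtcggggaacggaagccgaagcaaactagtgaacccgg
The window of PSMD11, the other member that rose and had one, held no match to these letters. PSMB5 has a second window, downstream, with GAS matches.

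The immune subunits, which fell with 5SGlcNAc, were searched for the same letters. Each kind of match found in them also occurs among the members. PSMB10 had the interferon regulatory letters 12 to 21 bases before its start site, and 1 of 2 PSMB8 windows had a GAS match 57 to 65 bases before the start and the interferon regulatory letters across it. PSMB9 had an extended antioxidant response element on the opposite strand and a CCAAT box further upstream, which is not printed. These stretches are printed to set them against the standard subunits, with the PSMB10 stretch of 170 bases and the others of up to 30:
PSMB10 (chr16:67936851-67937020, minus strand): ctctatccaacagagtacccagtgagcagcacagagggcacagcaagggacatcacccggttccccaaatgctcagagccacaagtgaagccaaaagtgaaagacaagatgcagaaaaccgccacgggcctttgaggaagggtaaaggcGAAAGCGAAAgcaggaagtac
PSMB8 (chr6:32844094-32844122, minus strand): aactgtccttTTCTCGGAAaaggcagggg
PSMB9 (chr6:32854033-32854062, plus strand): agggcggggcTGCCTCGTCActtgtctcgg

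Over 2 to 24 h no gene at all passed the test against DMSO for either inhibitor. A count of 0 members there therefore tells nothing particular to the proteasome genes. With the 5 times standing in for replicates, 0 of 30 members passed in limma for 5SGlcNAc against DMSO, for Thiamet-G against DMSO and for 5SGlcNAc against Thiamet-G, beside 0%, 0% and 0.259% of all genes. At an unadjusted p under 0.05 the members gave 0, 2 and 3, beside 4.38%, 9.29% and 13.2% of all genes. The 2 with Thiamet-G were PSMD12, a lid subunit, which had a positive difference at all 5 times with a mean of 0.17 (limma adjusted p = 0.334), as did 4.61% of all genes, and PSMD4, at -0.13 (limma adjusted p = 0.501). The mean differences of PSMB5, PSMB6 and PSMB7 were 0.032, -0.024 and 0.046 with 5SGlcNAc and -0.0016, -0.0078 and -0.00041 with Thiamet-G. PSMD11 and PSMD14 had 0.021 and -0.0057 with 5SGlcNAc.

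At single times, where each treatment has 1 array and no test is possible, the sign of the member median changed between times. The median member difference of 5SGlcNAc minus DMSO was -0.036 at 0 h, 0.066 at 2 h, -0.057 at 4 h, 0.058 at 6 h, 0.045 at 8 h and -0.058 at 24 h. For Thiamet-G minus DMSO it was -0.027, 0.035, -0.100, 0.040, 0.041 and -0.024 at the same times. Both inhibitors are set against the same DMSO array at each time. The median over all genes had the same sign as the member median at every time, with -0.012, 0.0081, -0.016, 0.035, 0.010 and -0.038 for 5SGlcNAc and -0.014, 0.0089, -0.019, 0.017, 0.0092 and -0.0043 for Thiamet-G. The mean over members of the DMSO array relative to its own 0 h was -0.022 at 2 h, 0.069 at 4 h, -0.026 at 6 h, -0.014 at 8 h and 0.084 at 24 h. The ACTB signal, 3' minus 5', was 1.24 with Thiamet-G and 1.64 with DMSO at 4 h, against 0.42 to 0.95 in the other arrays of 0 to 24 h; its part in these swings was not tested.

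**Figure D4:**
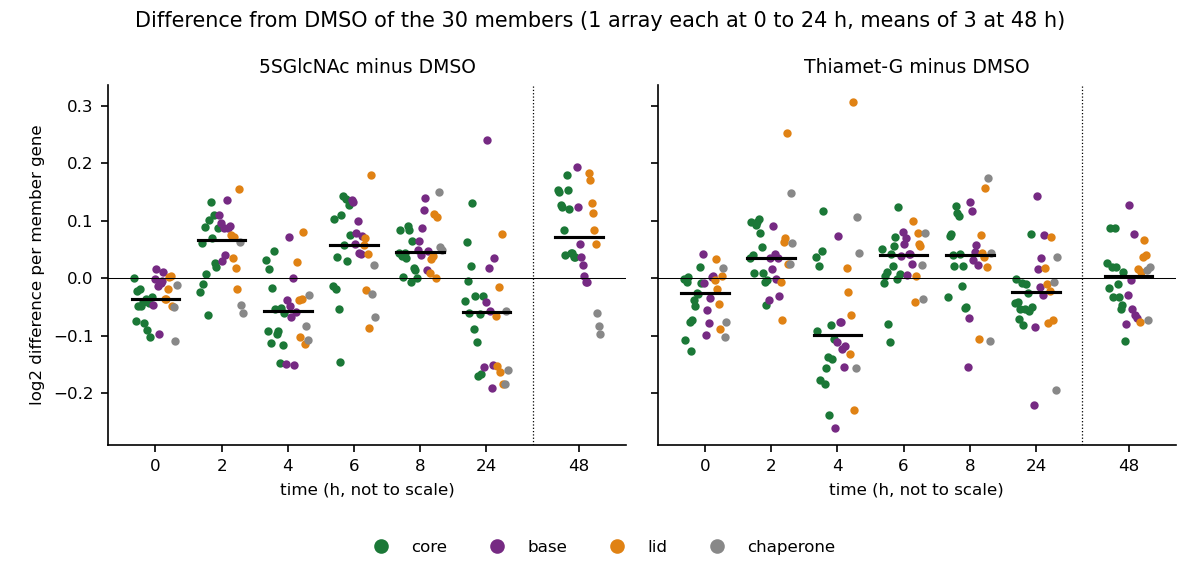
Log2 difference from DMSO (vertical axis) of each member by time in h (horizontal axis, not to scale), 5SGlcNAc on the left and Thiamet-G on the right, with points coloured by core, base, lid and chaperone and lines at the median of the 30 members. Medians at 0 to 24 h lie between -0.100 and 0.066 and change sign between times. At 48 h, fitted apart from the rest, the median is 0.072 with 5SGlcNAc and 0.0033 with Thiamet-G.

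The 5SGlcNAc effect at 48 h was also compared with that over 2 to 24 h. No member differed in limma, beside 1.78% of all genes, and 8 members (26.7%) had an unadjusted p under 0.05, all with the larger effect at 48 h, beside 13.2% of all genes in either direction. The median gap was 0.083 for core genes, -0.0056 for base genes and 0.13 for lid genes, and PSMD4 had the largest, 0.20 (limma adjusted p = 0.219). Over 2 to 24 h the medians of 5SGlcNAc minus DMSO were -0.00011 for core, 0.032 for base and 0.0024 for lid, so the base was highest there. At single times the base median ran from -0.053 at 4 h to 0.090 at 2 h. The Thiamet-G effects gave no member and 0% of all genes.

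The mean over members was above its 0 h value at 24 h in each series, by 0.062 with 5SGlcNAc, 0.092 with Thiamet-G and 0.084 with DMSO. At 24 h against 0 h, with the 3 series as a block, 28 of 30 differences were positive with a median of 0.064, beside 0.013 and 53.7% over all genes. By the test 3 members rose while none fell, beside 4.83% of genes that rose and 5.14% that fell. Base and lid moved further than the core: medians were 0.12 and 0.11 against 0.063, with 1 of 8 base, 2 of 6 lid and 0 of 13 core genes past the threshold. At 2, 4, 6 and 8 h no member passed in limma, beside 0.510%, 3.28%, 4.49% and 6.36% of genes, and 0, 1, 3 and 1 members had an unadjusted p under 0.05, beside 7.29%, 16.6%, 17.7% and 22.9% of genes. The lid medians at these times were 0.057, 0.085, 0.062 and 0.075, and the core medians 0.013, 0.028, -0.017 and 0.021.

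PSMD11 at 0, 2, 4, 6, 8 and 24 h had 11.92, 12.01, 12.05, 12.02, 12.02 and 12.15 with 5SGlcNAc, 11.96, 11.93, 12.04, 12.06, 11.91 and 12.24 with Thiamet-G, and 11.96, 11.94, 12.02, 11.96, 12.01 and 12.22 with DMSO. Its 24 h array was the highest in each series, and the mean rise was 0.26 (SE 0.053, limma adjusted p = 0.00741). PSMD12, its neighbour in the lid, rose by 0.27 with 5SGlcNAc, 0.36 with Thiamet-G and 0.20 with DMSO (mean 0.28, limma adjusted p = 0.0239). PSMC2, an ATPase of the base, rose by 0.19, 0.15 and 0.23 in the same series (mean 0.19, limma adjusted p = 0.0360). All 3 genes have a dimmer second probe set that did not show the rise, at -0.062 for PSMD11, -0.0079 for PSMD12 and -0.14 for PSMC2. With probe sets averaged per gene, or without any 1 of the 5SGlcNAc, Thiamet-G and DMSO series, none of the 3 passed.

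The immune subunits fell strongly over the same time in every series. PSMB10 fell by 0.91 (limma adjusted p = 0.000138), PSMB9 by 0.64 (limma adjusted p = 0.000818) and PSMB8 by 0.60 (limma adjusted p = 0.000875) at 24 h against 0 h, beside 5.14% of genes that fell, and all 3 held under all 11 alternative settings. PSMB10 was 1.11 lower than its own 0 h with 5SGlcNAc, 0.73 with Thiamet-G and 0.90 with DMSO. At 8 h all 3 had fallen, by 0.34 to 0.43, but PSMB10 and PSMB9 lost the call in 3 and PSMB8 in 4 of 11 alternative settings, with limma adjusted p up to 0.244. At the single times, 5SGlcNAc minus DMSO for PSMB10 was -0.11 at 0 h, 0.12 at 2 h, -0.13 at 4 h, 0.26 at 6 h, 0.27 at 8 h and -0.33 at 24 h, and PSMB8 and PSMB9 had the same signs, positive at 2, 6 and 8 h. None of the standard catalytic subunits passed at 24 h: PSMB5, PSMB6 and PSMB7 had 0.0021, 0.020 and 0.063.

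**Figure D5:**
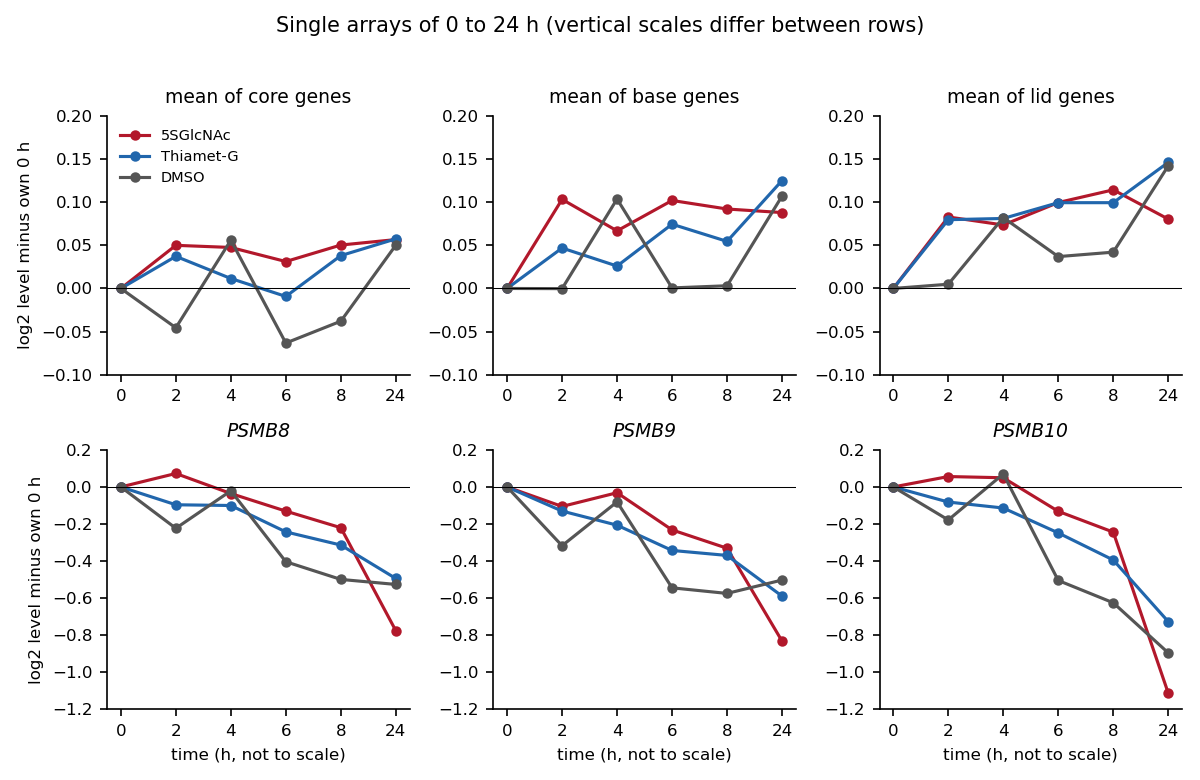
Log2 level minus the same series' 0 h array (vertical axis) by time in h (horizontal axis, not to scale), 1 array per point: means over core, base and lid genes in the upper row and the immune subunits PSMB8, PSMB9 and PSMB10 in the lower row, on a wider scale. At 24 h the lid means are 0.080 to 0.15 and the core means 0.050 to 0.057 above 0 h, while the 3 immune subunits are 0.49 to 1.11 below it.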

How the data were processed

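The authors deposited log2 expression values. The submitters' processing notes name RMA as the method; its version is not given in the sources used here. The 9 arrays of 48 h and the 18 arrays of 0 to 24 h differ in their medians (7.68 to 7.76 and 7.43 to 7.53) and were fitted apart. Of 22277 probe sets, 19064 name 1 gene in the platform annotation; a gene's value is that of its probe set with the highest mean, giving 11963 genes. All 30 members passed the filter on dim genes (40th percentile) used as an alternative. Arrays have no read depth, and their number limits the precision.

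Tests were made with limma 3.58.1 in R 4.3.3 (lmFit and eBayes) over all genes with Benjamini-Hochberg adjustment. At 48 h all 9 arrays shared 1 fit; over 2 to 24 h time was the block, and against 0 h the treatment series was. The fits were tested on simulated data, with changes larger than any fitted change of a member, so this tells nothing of shifts as small as theirs. Alternatives were quantile normalization, median centring, no dim genes, the mean of probe sets, no _x_at probe sets, trend and robust variance, only the arrays compared, a replicate block, other blocks, and leaving out arrays, times or series. Leaving out the 4 h arrays from the comparisons with 0 h, the base without PSMD4 and the bright genes as background were chosen after seeing the data.

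Members and lists were chosen with earlier results of these data known. Named genes are the members past the threshold, those with the largest changes in each subgroup, the catalytic and ATPase subunits, PSMD4, PSMD11 and PSMD14, regulators and partners on a list of 35 related genes (26 measured), and the members whose probe sets disagree most. Promoter windows are from RefSeq.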

Additional observations from a re-analysis of the deposited data

Results flagged for a closer look

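Among the related genes and the named genes of the NRF2 and O-GlcNAc systems, 3 had a 5SGlcNAc effect that differed between 48 h and 2 to 24 h in limma. Over all genes, 1.78% did. The effect was larger at 48 h by 1.83 for HMOX1, by 0.97 for NQO1 and by 0.38 for SQSTM1 on the log2 scale. The effect over 2 to 24 h is a mean over times. On single arrays, 5SGlcNAc minus DMSO was 0.30, 0.094 and -0.016 at 8 h in the same order. At 24 h it was already 2.31, 0.32 and 0.40. No member passed the limma test between 48 h and 2 to 24 h. The arrays of 48 h seem, by their medians, to have been processed apart from the others.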

How the results depend on the processing

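No result changed direction past its threshold. The 6 members that passed for 5SGlcNAc against DMSO became 12 without dim genes, 13 with trend and robust variance and 1 with the replicate block, and 0 to 1 without each array in turn. For 5SGlcNAc against Thiamet-G the 9 became 4 with median centring, 14 with trend and robust variance, 2 with only the arrays of those groups and 2 with the replicate block, and 2 to 6 without each array in turn. Thiamet-G against DMSO gave 2 in place of 0 with trend and robust variance. The 3 members of 24 h became 5 without dim genes, 6 with trend and robust variance, 0 with the mean of probe sets and 0 without each series. With the mean of probe sets 2 members passed at 4 h and 1 at 6 h; with trend and robust variance 2 passed at 6 h and 1 at 8 h. The gap between the 5SGlcNAc effects gave 1 member under either of these settings. Over all genes, 676 to 1794 passed for 5SGlcNAc against DMSO (1225 in the reported fit), 101 to 949 for Thiamet-G (417) and 924 to 2245 between the inhibitors (1634). The cause of these shifts was not tested, except that fewer arrays or genes enter some fits. Deviations of same-numbered arrays correlated between -0.33 and 0.17, so the numbers were not taken as pairing.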

Other observations

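Other genes of the ubiquitin system passed the test at 48 h. UBA1, the main ubiquitin-activating enzyme, had 11.20, 11.21 and 11.07 with Thiamet-G against 11.54, 11.39 and 11.39 with DMSO. It fell by 0.28 (limma adjusted p = 0.0339). It was the only one of 26 related genes that passed there, near the 3.49% of all genes that did. The call was lost in 9 of 14 alternative settings, with limma adjusted p up to 0.103, and UBA1 did not pass for 5SGlcNAc against DMSO (-0.15, limma adjusted p = 0.149) or against Thiamet-G (0.13, limma adjusted p = 0.171). Of 26 related genes, 3 were higher and 4 lower with 5SGlcNAc than with Thiamet-G, beside 822 and 812 of 11963 genes. VCP, the ATPase that extracts ubiquitinated proteins, had 12.43, 12.43 and 12.49 with 5SGlcNAc against 12.18, 12.30 and 12.24 with Thiamet-G. It was higher by 0.21 (limma adjusted p = 0.0201), a call lost in 4 of 14 alternative settings. With DMSO, VCP had 12.43, 12.40 and 12.51, close to 5SGlcNAc. PSMG2, a chaperone of core assembly, had 12.74, 12.81 and 12.78 with 5SGlcNAc against 12.99, 12.93 and 13.03 with Thiamet-G. It was lower by 0.21 (limma adjusted p = 0.0123). Its DMSO arrays, at 12.88, 12.90 and 12.85, lay between those of the inhibitors.

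With Thiamet-G, PSMD12 had 11.83 at 0 h, 12.15 at 2 h, 12.17 at 4 h, 12.16 at 6 h, 12.20 at 8 h and 12.19 at 24 h. With DMSO it had 11.92, 11.90, 11.86, 12.10, 12.04 and 12.12 at the same times. The Thiamet-G array was the higher at every time from 2 h on and the lower at 0 h.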
